A study of Homo sapiens with 8 samples.

Results

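EIF4A1, EIF4A2 and EIF4A3 encode the 3 eIF4A-type DEAD-box RNA helicases of human cells. They were chosen by name from the gene symbol of each RefSeq transcript, with their levels in these data already known, and make up 3 of 25884 gene symbols and 4 of 53216 transcript rows. The study measured RNA of HEK293T cells, an established human embryonic kidney cell line, by sequencing in 8 libraries. Untreated wild-type (WT) cells gave 2 RiboMinus libraries, made after removal of ribosomal RNA, and 3 NAD-Capture libraries. Untreated cells labelled DXO-KO, a knockout of DXO in the same line, gave a further 3 NAD-Capture libraries. In NAD-Capture, the enzyme ADP-ribosyl cyclase exchanges part of an RNA's NAD for an alkyne, biotin is attached to the alkyne by click chemistry, and streptavidin beads collect the RNA. A TruSeq kit was used after RiboMinus and a SMARTer low-input kit after NAD-Capture, so capture and kit cannot be told apart in any comparison between them. The study's mock reaction without the cyclase is not analysed here. The labels do not say whether the knockout line is a single clone, which part of DXO was altered, or whether replicates came from separate cultures, so p-values measure the spread between these libraries, which may be technical.

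The eIF4A proteins are ATP-dependent RNA helicases. EIF4A1 and EIF4A2 encode closely related forms of the helicase in eIF4F, the complex that binds the m7G cap of an mRNA and opens structure in its 5′ leader so that the ribosome can load. EIF4A3 encodes the RNA clamp of the exon junction complex, which the spliceosome leaves on mRNA upstream of exon junctions. NAD can replace the m7G cap when RNA polymerase starts transcription with NAD in place of ATP, and DXO is an enzyme that removes such NAD caps. EIF4A1 and EIF4A2 also carry small RNA genes in their introns. Box C/D snoRNAs (SNORD) guide 2′-O-methylation and box H/ACA snoRNAs (SNORA) guide pseudouridylation of other RNAs. Such intronic snoRNAs are trimmed from the spliced-out intron, so a snoRNA and its host mRNA come from the same primary transcript and have separate 5′ ends.

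The region just before each gene's RefSeq start is shown because an NAD cap is placed at the first transcribed base. The sequences are from RefSeq (GRCh38.p14), 5′ to 3′ on the strand of the gene, with the start base as the last capital and any TATAA in capitals. They cover chr17:7572785-7572825 (+) for EIF4A1, chr3:186783537-186783577 (+) for EIF4A2 and chr17:80147128-80147168 (-) for EIF4A3.
EIF4A1: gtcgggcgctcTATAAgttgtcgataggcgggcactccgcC
EIF4A2: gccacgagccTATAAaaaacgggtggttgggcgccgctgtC
EIF4A3: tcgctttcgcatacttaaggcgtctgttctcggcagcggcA
The letters TATAA began at position -29 in EIF4A1 and at -30 in EIF4A2, and were not in the EIF4A3 window. Among 35116 RefSeq windows of the same length, 4.34% held TATAA on the strand of the gene and 2.28% held it on the other strand, where none of the EIF4A windows had it. The RefSeq start base was C in EIF4A1 and EIF4A2 and A in EIF4A3, and 44.4% of all windows had an A there. Where transcription started in these cells was not measured.

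The small RNAs whose values are given below lie on the host's strand in introns of a GENCODE release 29 model (GRCh38) with 10 introns for EIF4A1 and 10 for EIF4A2. EIF4A1 holds SNORA48 in intron 3 (chr17:7574713-7574847), SNORD10 in intron 5 (chr17:7576811-7576952) and SNORA67 in intron 9 (chr17:7577955-7578091). EIF4A2 holds SNORD2 in intron 3, SNORA81 (chr3:186786675-186786852) and the microRNA gene MIR1248 in intron 7, SNORA63 in intron 8 (chr3:186787300-186787431) and SNORA4 in intron 9. No row of the deposited table is a small RNA inside EIF4A3. The 4 snoRNAs with the highest mean over the 6 NAD-Capture libraries (in WT alone SNORA48 lay above SNORA67) are printed from GENCODE transcripts, with mature miR-1248 from RefSeq, since they carry the results on hosted RNAs. Capitals mark the H box ANANNA nearest the middle and the final ACA in SNORA67 and SNORA63, TGATG and the last CTGA in SNORD10, the stretch of the mature microRNA in SNORA81, and the seed (bases 2 to 8) in miR-1248.
SNORA67: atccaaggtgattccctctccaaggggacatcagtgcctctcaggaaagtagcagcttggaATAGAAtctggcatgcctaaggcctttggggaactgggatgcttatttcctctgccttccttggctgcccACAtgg
SNORA63: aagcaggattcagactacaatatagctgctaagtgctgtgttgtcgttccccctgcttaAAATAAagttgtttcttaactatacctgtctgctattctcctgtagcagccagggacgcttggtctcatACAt
SNORD10: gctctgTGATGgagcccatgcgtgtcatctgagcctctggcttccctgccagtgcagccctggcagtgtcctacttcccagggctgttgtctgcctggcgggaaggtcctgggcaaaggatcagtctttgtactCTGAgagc
SNORA81: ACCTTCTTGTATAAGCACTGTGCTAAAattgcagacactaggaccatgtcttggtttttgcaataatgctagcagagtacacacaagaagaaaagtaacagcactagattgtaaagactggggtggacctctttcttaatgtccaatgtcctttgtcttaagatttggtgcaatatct
hsa-miR-1248: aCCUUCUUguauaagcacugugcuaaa
Of 142 SNORA sequences, 90.8% had ACA within the last 8 bases and 91.5% had an ANANNA near the middle. Of 275 SNORD sequences, 90.2% held both TGATG and CTGA. The MIR1248 hairpin shares 103 of its 106 bases with SNORA81, so the reads of these neighbours cannot be told apart with certainty.

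The values are FPKM, fragments scaled to transcript length and to the fragments of the library, so levels of mRNAs can be compared between genes, while FPKM of the short small RNAs was on a scale of its own in each library, as given below. Depth was read from the lowest values, which cluster at whole multiples of 1 fragment, and came to 10694529 and 8738445 fragment equivalents in RiboMinus, 164924 to 247519 in WT NAD-Capture and 80117 to 800701 in the DXO-KO-labelled libraries. Replicate 1 labelled DXO-KO was the deepest of the NAD-Capture libraries and replicate 3 the shallowest. DXO RNA, the targeted gene, was 11.2 and 14.3 FPKM in RiboMinus, then 33.2, 17.2 and 27.1 FPKM after WT NAD-Capture. It reached 127.6, 61.6 and 71.7 FPKM in DXO-KO-labelled replicates 1 to 3, higher and not lower, so these libraries are named by their label throughout. Without knowing which part of DXO was altered, this level does not check the labels. Of the HEK293T marker genes, VIM was at 72.5 to 321 FPKM in all 8 libraries, NEFL and NEFM were above 0 in all 8, KRT18 was at 0 in DXO-KO-labelled replicate 3 and PAX2 in replicate 2. KRT8 was at 2.81 to 67.4 FPKM in all 8. Of 5 markers of other cell types, the blood marker PTPRC was at 0 in all 8, and the red cell marker HBA1 and the liver marker ALB were at 1.30 FPKM or less in RiboMinus and at 0 after NAD-Capture. The fibroblast marker COL1A1 was at 1.27 and 1.56 FPKM in RiboMinus, 8.27 to 9.28 FPKM in WT NAD-Capture and 0 to 4.43 FPKM in the DXO-KO-labelled libraries. The macrophage marker CD68, which other cells also express, was at 0.676 and 1.03 FPKM, then 22.9, 19.0 and 30.4 FPKM, then 4.47, 0 and 15.8 FPKM. The part of these in the results was not tested.

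EIF4A1 RNA was high in all WT libraries and lower in the DXO-KO-labelled libraries. Summed over its transcripts it was 406 and 387 FPKM in RiboMinus (396 ± 13.0 SD, n = 2). In WT NAD-Capture it was 488, 482 and 309 FPKM (426 ± 102 SD, n = 3), and in DXO-KO-labelled replicates 1 to 3 it was 123, 231 and 262 FPKM (205 ± 73.1 SD, n = 3). The RiboMinus values lay inside the WT NAD-Capture range, so these neighbours in the order did not differ beyond their spread, while every library labelled DXO-KO lay below every other library. On the log2(FPKM + 1) scale the difference was 0.07 for WT NAD-Capture minus RiboMinus, -1.09 for DXO-KO-labelled minus WT NAD-Capture and -1.02 for DXO-KO-labelled minus RiboMinus. The sign of the first of these turned when libraries were scaled by another rule, to -0.43 with each library centred on its median gene, and without WT NAD-Capture replicate 1 or 2 (-0.04 and -0.03). Lower values without overlap were found in 11.5% of 18031 genes in the comparison of the NAD-Capture groups, and 21.9% of those genes had a more negative difference than EIF4A1. Leaving out each library in turn gave -1.31 to -0.76 for the NAD-Capture groups. EIF4A1 rested on 105, 89 and 86 fragments in WT NAD-Capture and on 110, 36 and 24 in DXO-KO-labelled replicates 1 to 3. The 95% Poisson intervals were 163 to 323 and 171 to 398 FPKM in DXO-KO-labelled replicates 2 and 3. Both overlapped that of WT NAD-Capture replicate 3, 248 to 383 FPKM. The second also overlapped that of WT NAD-Capture replicate 2, which began at 387 FPKM. No test is given for the EIF4A genes themselves, because they were chosen with these levels known. RiboMinus RNA of DXO-KO cells was not analysed here, so more RNA and more NAD capture of that RNA cannot be told apart in the DXO-KO-labelled libraries, and in such bulk RNA neither can more cells with a transcript and more transcript per cell.

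EIF4A1 has 2 rows, written here as the longer NM_001416 and the shorter NM_001204510. In RiboMinus, NM_001416 was at 165 and 147 FPKM and NM_001204510 at 240.5 and 240.1 FPKM, so the shorter form took 59.3% and 62.0% of the sum. In all 6 NAD-Capture libraries NM_001416 was listed at 0, and the whole EIF4A1 value stood on NM_001204510. The GENCODE models paired with these accessions share 1319 nucleotides, and NM_001416 has a further 437 and NM_001204510 none of its own. Of the 437 nucleotides, 364 lie past the last base of NM_001204510, 62 are coding and 11 lie before its first base. A listed 0 can be a failed estimate when transcripts overlap in this way, so the split is given as listed and all comparisons use the sum. Taking the EIF4A1 fragments of every library, RiboMinus included, at the length of NM_001416 left the difference between the NAD-Capture groups at -1.09 and turned that between WT NAD-Capture and RiboMinus to -0.13. The readthrough transcript SENP3-EIF4A1, which joins EIF4A1 to the gene before it, was at 0.448 and 0.565 FPKM in RiboMinus and listed at 0 in the other libraries.

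EIF4A2 RNA was higher in WT NAD-Capture than in RiboMinus, and higher still in the DXO-KO-labelled libraries. It has 1 row, NM_001967, at 51.9 and 51.5 FPKM in RiboMinus (51.7 ± 0.272 SD, n = 2) and at 263, 224 and 206 FPKM in WT NAD-Capture (231 ± 29.1 SD, n = 3). In DXO-KO-labelled replicates 1 to 3 it was 299, 587 and 634 FPKM (506 ± 181 SD, n = 3). None of the 3 groups overlapped another. The log2 difference was 2.13 for WT NAD-Capture minus RiboMinus, 1.06 for DXO-KO-labelled minus WT NAD-Capture and 3.19 for DXO-KO-labelled minus RiboMinus. The last of these shares the RiboMinus libraries with the first, and the first 2 share the WT NAD-Capture libraries, so they are not independent of each other. Higher values without overlap were found in 28.6%, 11.6% and 24.1% of the genes tested in these comparisons, and 14.5%, 12.9% and 1.85% of genes had a greater difference than EIF4A2. The values rested on 955 and 774 fragments in RiboMinus, on 87, 63 and 88 for WT NAD-Capture and on 412, 139 and 87 in the DXO-KO-labelled libraries. The 95% Poisson interval of DXO-KO-labelled replicate 1, 271 to 330 FPKM, overlapped those of WT NAD-Capture replicates 1 and 2, 211 to 325 and 171 to 284 FPKM. The intervals of DXO-KO-labelled replicates 2 and 3 began at 493 and 506 FPKM. Without DXO-KO-labelled replicate 1 the NAD-Capture groups differed by 1.41, and without replicate 3 by 0.87. These intervals describe counting error alone, because reads copied by PCR are not separate molecules.

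EIF4A3 RNA was lower in both NAD-Capture groups than in RiboMinus. Its row, NM_014740, was at 161 and 154 FPKM in RiboMinus (158 ± 5.23 SD, n = 2), at 33.5, 58.5 and 46.7 FPKM in WT NAD-Capture (46.2 ± 12.5 SD, n = 3) and at 33.7, 37.3 and 81.2 FPKM in DXO-KO-labelled replicates 1 to 3 (50.7 ± 26.5 SD, n = 3). The NAD-Capture groups overlapped, with a log2 difference of 0.05 between them that ranged from -0.34 to 0.28 when each library was left out in turn. Against RiboMinus the log2 difference was -1.78 in WT NAD-Capture and -1.73 in the DXO-KO-labelled libraries, again with shared RiboMinus libraries. Lower values without overlap were found in 26.7% and 20.2% of genes in these comparisons, and 4.76% and 4.67% of genes had a more negative difference. EIF4A3 rested on 2649 and 2065 fragments in RiboMinus, on 10, 15 and 18 for WT NAD-Capture and on 41, 8 and 10 in the DXO-KO-labelled libraries. A difference between the NAD-Capture groups smaller than the counting error of 8 to 18 fragments was not detectable at this depth.

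**Figure D1:**
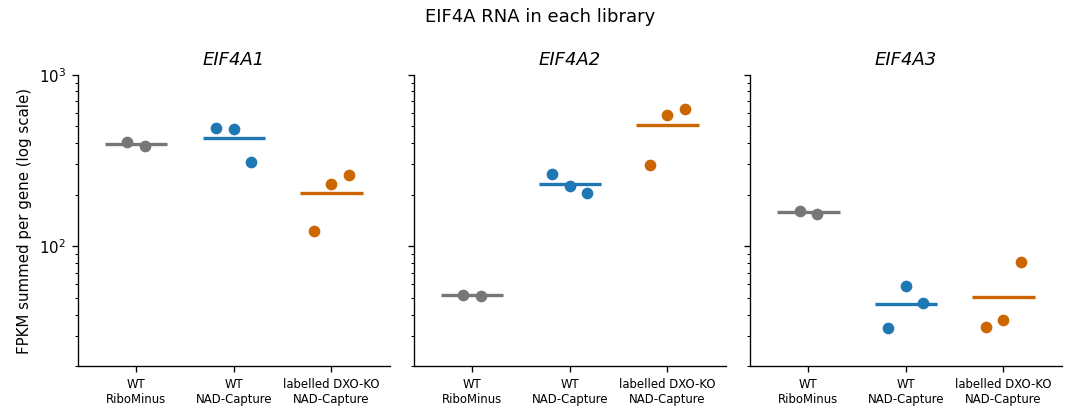
FPKM summed per gene (vertical log axis) for EIF4A1, EIF4A2 and EIF4A3 in each library, with points for libraries and horizontal bars for group means. EIF4A2 had means of 51.7, 231 and 506 FPKM in the 3 groups, EIF4A3 was lower in both NAD-Capture groups, and EIF4A1 was lowest in the DXO-KO-labelled libraries.

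The balance between EIF4A2 and EIF4A1 differed between the groups without overlap. The ratio of EIF4A2 to EIF4A1 FPKM was 0.128 and 0.133 in RiboMinus. It came to 0.538, 0.464 and 0.666 after WT NAD-Capture and to 2.44, 2.54 and 2.42 in DXO-KO-labelled replicates 1 to 3. EIF4A1 was thus the more abundant in every WT library and EIF4A2 in every library labelled DXO-KO. Multiplying a library by any factor leaves the ratio as it is. Within the DXO-KO-labelled libraries its coefficient of variation was 2.68%, against 35.6% for EIF4A1 and 35.7% for EIF4A2 taken alone: replicate 1 was the lowest of the group for both genes. In replicate 3, EIF4A1 rested on 24 fragments, with a 95% Poisson interval of 171 to 398 FPKM at the 1319 nucleotides of the paired GENCODE model (a longer RefSeq transcript would give more fragments), so the closeness of the 3 ratios is finer than the counting error of that library. At the length of NM_001416 for all EIF4A1 fragments, the ratio was 0.645 to 0.926 in WT NAD-Capture and 3.36 to 3.53 in the DXO-KO-labelled libraries, with the same order of groups. The ratio of EIF4A3 to EIF4A1 was 0.398 in both RiboMinus libraries, 0.0687 to 0.151 in WT NAD-Capture and 0.162 to 0.310 in the DXO-KO-labelled libraries, so the NAD-Capture groups nearly touched. The ratio of EIF4A3 to EIF4A2 was 2.99 and 3.11 in RiboMinus and overlapped between the NAD-Capture groups, at 0.128 to 0.261 in WT and 0.0636 to 0.128 in the DXO-KO-labelled libraries.

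As shares of the summed EIF4A FPKM, EIF4A1 held 65.5% and 65.3% in RiboMinus, 55.0% to 63.1% in WT NAD-Capture and 26.8% to 27.0% in the DXO-KO-labelled libraries. EIF4A2 held 8.39% and 8.69%, then 29.3% to 36.7%, then 64.9% to 68.6%. EIF4A3 held 26.1% and 26.0% in RiboMinus, with 4.28% to 8.33% left after WT NAD-Capture and 4.37% to 8.31% in the DXO-KO-labelled libraries. The sum itself was 619 and 593 FPKM in RiboMinus, 561 to 784 FPKM in WT NAD-Capture and 456 to 977 FPKM in the DXO-KO-labelled libraries, so the groups overlapped in the total and differed in its make-up.

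**Figure D2:**
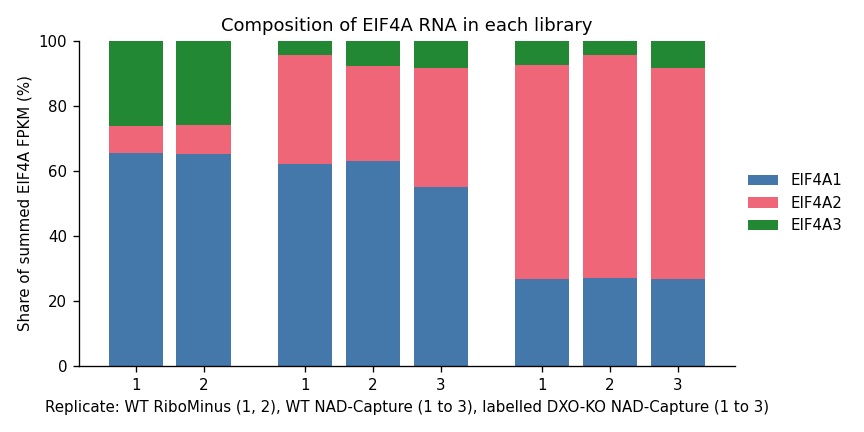
Share of the summed EIF4A FPKM (%, vertical axis) held by EIF4A1, EIF4A2 and EIF4A3, with 1 stacked bar per library. EIF4A2 holds under 9% in both RiboMinus libraries and 64.9% or more in the DXO-KO-labelled libraries, where EIF4A1 holds 26.8% to 27.0%.

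Among 51 symbols that begin with DDX or EIF4A, most of them RNA helicases and some antisense, divergent-transcript or pseudogene rows, EIF4A1 was the most abundant in both RiboMinus and all 3 WT NAD-Capture libraries, and EIF4A2 in all 3 DXO-KO-labelled libraries. EIF4A1 ranked 5, 5 and 3 in DXO-KO-labelled replicates 1 to 3. EIF4A2 ranked 17 in both RiboMinus libraries and 2 or 3 in WT NAD-Capture. EIF4A3 ranked 7 in RiboMinus, 7 to 10 in WT NAD-Capture and 7 to 16 in the DXO-KO-labelled libraries. The most abundant other member was DDX5, a transcription and splicing co-factor, at 262 and 263 FPKM in RiboMinus, and its paralog DDX17, at 212 to 268 FPKM, in WT NAD-Capture.

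The snoRNAs of EIF4A1 did not share a pattern with each other, and only SNORA48 had, like the host, a lower mean in the DXO-KO-labelled libraries than in WT NAD-Capture. SNORD10 was at 825 and 866 FPKM in RiboMinus, at 13212, 11723 and 4991 FPKM in WT NAD-Capture and at 13538, 10911 and 19899 FPKM in DXO-KO-labelled replicates 1 to 3. It rose in WT NAD-Capture over RiboMinus by a log2 difference of 3.44 (SE 0.478, limma adjusted p = 0.00838), in a comparison where 4238 of 17286 genes, 24.5%, passed the threshold of 0.05, 16.7% upward and 7.86% downward. Quantile normalization left a difference of 1.36 for SNORD10 (0.0204). Between the NAD-Capture groups SNORD10 overlapped (0.64, limma adjusted p = 0.765), and the sign turned with quantile normalization (-0.57). SNORA48 was highest in RiboMinus, at 3907 and 4347 FPKM, against 2082, 1860 and 928 FPKM in WT NAD-Capture and 584, 1518 and 0 FPKM in DXO-KO-labelled replicates 1 to 3. Its difference from RiboMinus in WT NAD-Capture was -1.43 and missed the threshold (SE 0.405, limma adjusted p = 0.0575). SNORA48 passed as lower at a mean FPKM of at least 10 (0.0484), with centring (-1.93, 0.0227) and with quantile normalization (-4.06, 0.00109). It also passed without WT NAD-Capture replicate 3 (-1.07, 0.0143). Between the NAD-Capture groups SNORA48 overlapped, on 0 to 7 fragments per library (-3.99, limma adjusted p = 0.404). That difference was -0.70 without DXO-KO-labelled replicate 3. For DXO-KO-labelled minus RiboMinus it was -5.42 (limma adjusted p = 0.398). SNORA67 was at 593 and 742 FPKM in RiboMinus and at a like level in WT NAD-Capture, 774, 864 and 574 FPKM, but at 3260, 2825 and 5263 FPKM in DXO-KO-labelled replicates 1 to 3. Those libraries all lay above WT NAD-Capture (log2 difference 2.32, SE 0.471, limma adjusted p = 0.104). In that comparison 6 of 18031 genes, 0.0333%, passed (0.0166% in each direction) and SNORA67 was not among them. Of the 18031 genes, 11.6% were higher without overlap.

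Of the small RNAs of EIF4A2, MIR1248 and SNORA63 were listed higher in every library labelled DXO-KO than in every WT NAD-Capture library. The same held for 11.6% of the 18031 genes in this comparison. MIR1248 was listed at 0 in all 3 WT NAD-Capture libraries and in RiboMinus replicate 1, was at 26.6 FPKM in RiboMinus replicate 2, and was at 445, 6235 and 1497 FPKM in DXO-KO-labelled replicates 1 to 3. For a 137-nucleotide RNA, the 3 fragments that a count of 0 allows were worth 1164, 1289 and 860 FPKM in WT NAD-Capture, more than the 445 FPKM of DXO-KO-labelled replicate 1, and 1 fragment was worth 2630 FPKM in DXO-KO-labelled replicate 3, more than the 1497 FPKM listed there. These fragment values come from a fit to few low values, described below, and none were fitted at the shorter length of MIR1248. The row passed the filter on low values only through the DXO-KO-labelled libraries, so its call (limma adjusted p = 0.00283, range over alternatives 0.00136 to 0.0823) supports no difference by itself. It missed the threshold when any WT NAD-Capture replicate was left out (adjusted p of 0.0754, 0.0572 and 0.0823 without replicates 1 to 3) or without the filter on low values (0.0509). SNORA81, which overlaps it, was at 78.1 and 125 FPKM in RiboMinus, at 1956, 2633 and 873 FPKM in WT NAD-Capture and at 888, 5620 and 16724 FPKM in DXO-KO-labelled replicates 1 to 3. It rose in WT NAD-Capture over RiboMinus (log2 difference 4.05, SE 0.522, limma adjusted p = 0.00696) and overlapped between the NAD-Capture groups (1.40, limma adjusted p = 0.510). That difference was 0.44 without DXO-KO-labelled replicate 3, 0.80 with quantile normalization and 2.55 without DXO-KO-labelled replicate 1, and 0.95 without WT NAD-Capture replicate 3. SNORA63 was at 2756 and 2259 FPKM in RiboMinus, 2498, 3721 and 3402 FPKM in WT NAD-Capture and 8765, 11132 and 25510 FPKM in DXO-KO-labelled replicates 1 to 3. The DXO-KO-labelled libraries lay above WT NAD-Capture without overlap, and the difference missed the threshold (2.1, SE 0.816, limma adjusted p = 0.262) and was 1.23 with quantile normalization. SNORA4 was above 0 in RiboMinus, at 17.0 and 91.1 FPKM, and in replicate 1 of each NAD-Capture group, at 387 and 388 FPKM. The latter 2 values stood on 1 fragment in WT and on 5 in the DXO-KO-labelled library. SNORD2 was listed at 0 in all 8 libraries.

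**Figure D3:**
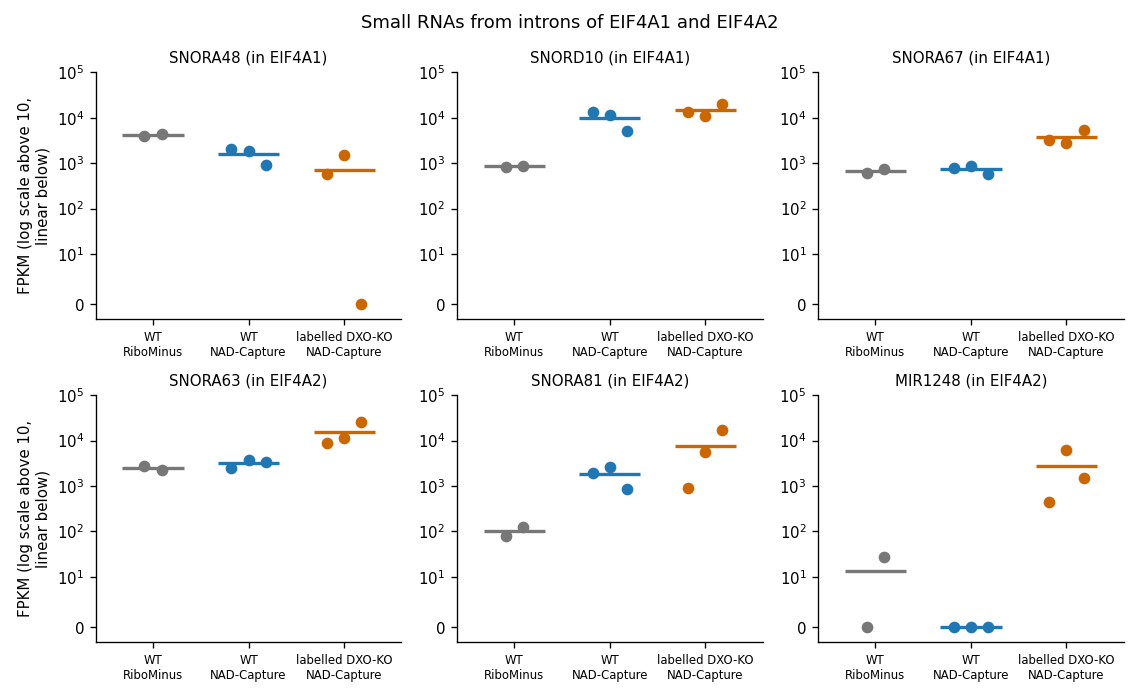
FPKM (vertical axis, log scale above 10 and linear below) of 6 small RNAs from introns of EIF4A1 and EIF4A2, with points for libraries and horizontal bars for group means. SNORD10 and SNORA81 are higher in WT NAD-Capture than in RiboMinus, and SNORA67 and SNORA63 are highest in the DXO-KO-labelled libraries.

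Against RiboMinus, none of the 7 tested hosted small RNAs passed in the DXO-KO-labelled libraries (limma). Of 15276 genes, 3.33% passed there, 2.45% upward and 0.884% downward, and 21.2% had an unadjusted p under 0.05. The log2 differences were 4.08 for SNORD10 (limma adjusted p = 0.0667), 5.45 for SNORA81 (0.0828) and 2.46 for SNORA67 (0.0837). These and MIR1248 (8.26, adjusted p = 0.0654) were the 4 with an unadjusted p under 0.05. Each of the 4 passed under some alternatives: SNORD10 (0.0324), SNORA67 (0.0487) and MIR1248 (0.0464) at a mean FPKM of at least 10, SNORD10 also without DXO-KO-labelled replicate 1 or 3 (0.0338 and 0.0440), and SNORA81 with quantile normalization (0.0208) and without DXO-KO-labelled replicate 1 (0.0345). MIR1248 was listed at 0 and 26.6 FPKM in RiboMinus and stood mainly on the DXO-KO-labelled libraries, so its pass supports no difference by itself. With quantile normalization the difference was 1.32 for SNORD10 and 0.16 for SNORA67, and that of SNORA63 turned from 2.44 to -1.60. The calls for SNORD10 and SNORA81 in WT NAD-Capture were lost when either RiboMinus library was left out (limma adjusted p of 0.140 and 0.124 for SNORD10, and 0.110 and 0.0784 for SNORA81), with log2 differences of 3.40 to 4.38.

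Fragments behind the box H/ACA snoRNAs were few, and FPKM of such short RNAs was not on 1 scale in all libraries. The value of 1 fragment was fitted from 6 to 9 low snoRNA values per NAD-Capture library, of which 6 to 8 were near whole multiples. The snoRNAs counted below could be among them. The scale, counts, intervals and ratios given here are estimates that depend on this fit. For a 137-nucleotide snoRNA, a rate of 1 per 1000000 fragments corresponded to 74.5, 70.9 and 71.0 FPKM in WT NAD-Capture, to 61.8 and 64.9 FPKM in DXO-KO-labelled replicates 1 and 2 and to 211 FPKM in replicate 3. No such scale was fitted for RiboMinus, so its part in the differences of small RNAs from RiboMinus was not tested. Counts per 1000000 fragment equivalents leave out this scale. SNORA63 stood on 6, 8 and 11 fragments in WT NAD-Capture and on 105, 22 and 9 in DXO-KO-labelled replicates 1 to 3, or 31.3, 48.5 and 44.4 against 131, 160 and 112 per 1000000, a ratio of means of 3.25. SNORA67 stood on 2 fragments in each WT NAD-Capture library and on 42, 6 and 2 in DXO-KO-labelled replicates 1 to 3, or 10.4, 12.1 and 8.08 against 52.5, 43.6 and 25.0 per 1000000, a ratio of 3.95. Neither snoRNA overlapped between the groups on this scale either. In FPKM 11.6% of all genes were higher without overlap, and that share was not computed on this scale. For SNORA67 only DXO-KO-labelled replicate 1 had a 95% Poisson interval (37.8 to 70.9 per 1000000) whose lower bound lay above the upper bounds of WT NAD-Capture replicates 1 and 3, 37.6 and 29.2, and it did not clear that of replicate 2, 43.8.

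**Figure D4:**
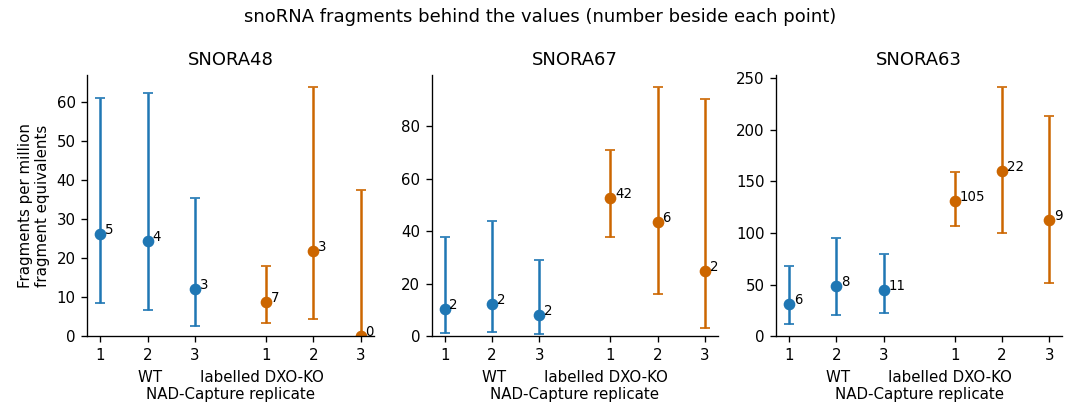
Fragments per 1000000 fragment equivalents (vertical axis) of SNORA48, SNORA67 and SNORA63 in the 6 NAD-Capture libraries, with 95% Poisson intervals and the number of fragments beside each point. SNORA63 lies between 31.3 and 48.5 per 1000000 in WT and between 112 and 160 in the DXO-KO-labelled libraries, while SNORA48 overlaps.

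Relative to the host, the snoRNAs differed from each other. SNORA67 was at 1.46 to 1.92 times the FPKM of EIF4A1 in the 5 WT libraries and at 26.5, 12.2 and 20.1 times in DXO-KO-labelled replicates 1 to 3. SNORD10 was at 2.04 and 2.24 times EIF4A1 in RiboMinus, 16.2 to 27.1 times in WT NAD-Capture and 47.3 to 110 times in the DXO-KO-labelled libraries. SNORA63 was at 53.1 and 43.9 times EIF4A2 in RiboMinus, at 9.52 to 16.6 times in WT NAD-Capture and at 19.0 to 40.3 times in the DXO-KO-labelled libraries. EIF4A1 was therefore lower, and SNORA67 and its ratio to EIF4A1 higher, in the DXO-KO-labelled libraries, while EIF4A2 and its SNORA63 were both higher there. These ratios are compared between libraries only, since the FPKM of snoRNAs and mRNAs are not on 1 scale, and they carry the change of scale in replicate 3 and the unmeasured scale of RiboMinus.

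Other protein-coding genes that hold a SNORA or SNORD gene on the same strand gave a reference for the hosts. Of 126 such genes tested between WT NAD-Capture and RiboMinus, 13 rose and 38 fell (limma), 40.5% against 24.5% of all genes, of which 16.7% rose and 7.86% fell, with a median log2 difference of -0.60 against 0.22 over all genes. Among all genes with a mean FPKM of at least 10, 1141 rose and 1249 fell, so the upward lean of all genes depended on the filter. Only 5 of the 126 had a greater difference than EIF4A2, and 42 a greater difference than EIF4A1. Between the NAD-Capture groups none of 127 passed in limma (12 at an unadjusted p under 0.05), where 0.0333% of all genes passed and 16.5% had an unadjusted p under 0.05, and the median was 0.35 against -0.02 over all genes. There, 10 of the 127 had a greater difference than EIF4A2 and 2 a more negative one than EIF4A1, so the pair stood near opposite ends of the hosts. For DXO-KO-labelled minus RiboMinus none of 128 hosts exceeded EIF4A2. Because EIF4A1 and EIF4A2 were chosen with these levels known, their places among the hosts are a description and no test.

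The partners of EIF4A1 and EIF4A2 in eIF4F that passed the test between WT NAD-Capture and RiboMinus had all fallen. Of 12 listed partners and regulators 11 were tested, EIF4EBP3 being listed at 0 in every library. Between WT NAD-Capture and RiboMinus 3 of the 11 fell and none rose (limma), 27.3% against 24.5% of all genes, of which 7.86% fell and 16.7% rose. The median log2 difference was -0.33 against 0.22 over all genes, and 9 of the 11 differences were below 0. The upward lean over all genes did not hold at a mean FPKM of at least 10, where 1141 rose and 1249 fell. EIF4G1, the scaffold that joins eIF4A to the cap-binding protein, was at 200 and 205 FPKM in RiboMinus and at 44.5, 39.3 and 45.0 FPKM in WT NAD-Capture (-2.21, SE 0.166, limma adjusted p = 0.00241). EIF4G2, a related scaffold without a cap-binding-protein site, fell by 1.50 (limma adjusted p = 0.00644), and EIF4H, a cofactor that stimulates eIF4A, fell by 1.42 (0.00757). The cap-binding protein EIF4E (-0.17), the cofactor EIF4B (0.48) and PDCD4, an inhibitor that binds eIF4A (0.54), did not pass (limma adjusted p of 0.728, 0.248 and 0.186). Between the NAD-Capture groups none of the 11 passed in limma, adjusted or unadjusted, against 0.0333% and 16.5% of all genes. Of the 11 differences 10 were above 0, with a median of 0.46 against -0.02 over all genes. The other lists leaned the same way, with 95 of 127 hosts, 12 of 15 exon junction complex genes and 26 of 37 DDX symbols above 0. EIF4E had 6.52, 11.4 and 6.33 FPKM in WT NAD-Capture and 10.2, 20.5 and 23.2 FPKM in DXO-KO-labelled replicates 1 to 3 (1.03, limma adjusted p = 0.312). Against RiboMinus, EIF4G1 also fell in the DXO-KO-labelled libraries (-1.99, limma adjusted p = 0.0308). Calls for the 3 genes that fell were lost when either RiboMinus library was left out, with limma adjusted p of 0.0625 and 0.0681 for EIF4G1 in WT NAD-Capture. The call for EIF4G1 in the DXO-KO-labelled libraries was also lost without the filter on low values (0.0596) and without DXO-KO-labelled replicate 2 (0.0806).

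Exon junction complex genes, the partners of EIF4A3, were mostly lower in WT NAD-Capture than in RiboMinus. Of 15 tested between WT NAD-Capture and RiboMinus, 1 rose and 3 fell (limma), 26.7% against 24.5% of all genes, of which 16.7% rose and 7.86% fell. The median log2 difference was -0.61 against 0.22 over all genes, and 12 of the 15 differences were below 0. Lower values without overlap were found in 10 of the 15, against 26.7% of all genes. This lean was not particular to the list: of 37 DDX symbols tested, 30 were below 0 and 27 lower without overlap, with a median of -0.93. At a mean FPKM of at least 10, 1141 of all genes rose and 1249 fell. MAGOH, which with RBM8A forms the core dimer that locks EIF4A3 onto RNA, rose from 51.3 and 56.7 FPKM in RiboMinus to 167, 112 and 128 FPKM in WT NAD-Capture (1.29, SE 0.228, limma adjusted p = 0.0160), the opposite direction to EIF4A3. Its partner RBM8A did not pass (0.24, limma adjusted p = 0.511). CASC3, a core component that binds EIF4A3 directly, fell by 1.04 (limma adjusted p = 0.0469), and the auxiliary factors ACIN1 and SAP18 fell by 1.15 (0.0101) and 1.25 (0.0450). Between the NAD-Capture groups none of the 15 passed (limma), where 0.0333% of all genes passed. RBM8A and UPF3B, 2 of the 15, had an unadjusted p under 0.05, a share no larger than the 16.5% of all genes. The difference of RBM8A was 1.1 (limma adjusted p = 0.217), with WT NAD-Capture values of 21.9, 19.3 and 27.4 FPKM. Its values for DXO-KO-labelled replicates 1 to 3 were 30.6, 66.3 and 60.0 FPKM. UPF3B, a nonsense-mediated decay factor named after its values were seen, had a difference of 1.95 (limma adjusted p = 0.116). Against RiboMinus, ACIN1 fell in the DXO-KO-labelled libraries (-1.36, limma adjusted p = 0.0441). All of these calls against RiboMinus were lost when either RiboMinus library was left out. In WT NAD-Capture minus RiboMinus, MAGOH also missed the threshold with centring (limma adjusted p = 0.0501), and CASC3 and SAP18 without the filter on low values (0.0517 and 0.0609), with quantile normalization (0.103 and 0.109) and without WT NAD-Capture replicate 1 (0.0732 and 0.0968). CASC3 also missed it without replicate 2 (0.0689) and SAP18 without replicate 3 (0.0636). ACIN1 in the DXO-KO-labelled libraries missed it without the filter (0.0596), with quantile normalization (0.0514) and without DXO-KO-labelled replicate 2 (0.0912).

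**Figure D5:**
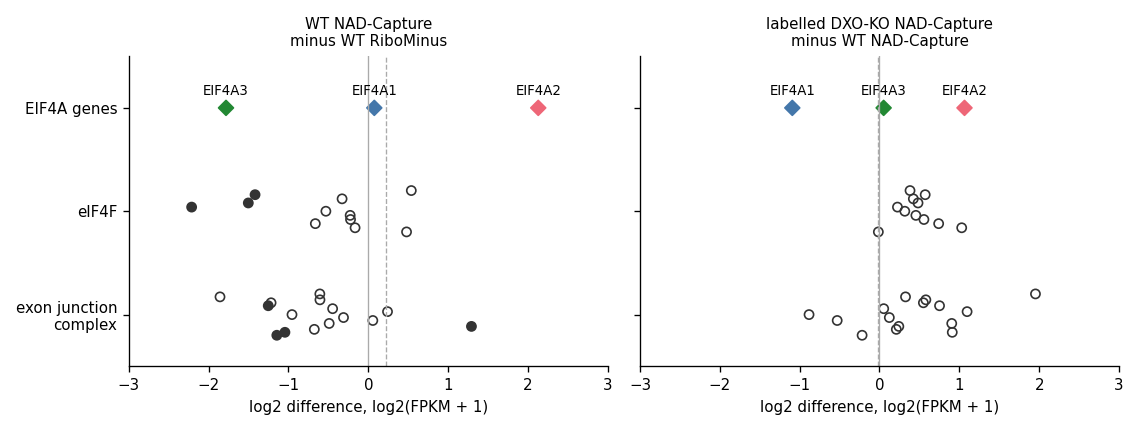
Difference on the log2(FPKM + 1) scale (horizontal axis) for the EIF4A genes (diamonds), 11 eIF4F genes and 15 exon junction complex genes (circles, filled where the limma adjusted p is under 0.05), in 2 comparisons. The solid line is 0 and the dashed line the median of all genes tested: EIF4G1 is the lowest of the eIF4F genes at -2.21, and EIF4A1 and EIF4A2 lie on opposite sides in the comparison of the NAD-Capture groups.

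The genes most like each EIF4A gene over the 8 libraries were ranked by Pearson's r of log2(FPKM + 1) among 6127 genes with a mean FPKM of at least 10 and no library at 0. This describes 8 libraries in 3 groups that share depth and kit differences, and no p is given. PFN1, an actin-binding protein (0.967), and the histone genes H2AZ1 (0.960) and H2BC18 (0.944) were most like EIF4A1. PFN1 was at 226 and 238 FPKM in RiboMinus, 236 to 274 FPKM in WT NAD-Capture and 96.9 to 204 FPKM in the DXO-KO-labelled libraries. RPL28, a ribosomal protein (0.996), PMAIP1, a pro-apoptotic BCL-2 family protein (0.991), and SLC34A3, a phosphate transporter (0.991), were most like EIF4A2. SLC34A3 was at 0.0485 and 0.0593 FPKM in RiboMinus, 6.15 to 8.07 FPKM in WT NAD-Capture and 11.6 to 38.8 FPKM in the DXO-KO-labelled libraries. It reached the mean FPKM of 10 only through the DXO-KO-labelled libraries, so its r supports no likeness by itself. PMAIP1 went from 38.1 and 43.4 FPKM in RiboMinus to 288 to 351 FPKM in WT NAD-Capture and 302 to 947 FPKM in the DXO-KO-labelled libraries. The helicases DDX52 (0.973) and DHX9 (0.961) were among the genes most like EIF4A3.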

How the data were processed

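RNA was measured in 8 HEK293T libraries (2 WT RiboMinus, 3 WT NAD-Capture, 3 labelled DXO-KO). The authors deposited FPKM for each RefSeq transcript in each library; the unit is in the table's name. The submitters' processing notes name TopHat2 2.1.1, Bowtie2 2.2.8.0, Cuffdiff and hg19; annotation version, options and any scaling between libraries are not given in the sources used here. Symbols came from a RefSeq gene table (GRCh38.p14) and GENCODE and covered 49500 of 53216 rows (93.0%). FPKM was summed per symbol and log2(FPKM + 1) was compared with limma 3.58.1 (R 4.3.3; trended eBayes, two-sided, Benjamini-Hochberg) over genes whose FPKM averaged at least 1 in those libraries. That scale understates the change of low genes. Only the libraries compared entered a fit, and the script was tested on simulated data. Fragment equivalents came from FPKM times effective length (length minus about 200 nucleotides); 69.6% to 73.7% of low values were within 0.1 of a whole number, and for the SNORA genes a tolerance of 0.06 was used. Tables used Python 3.11.15, pandas 2.3.3, numpy 2.4.6 and scipy 1.17.1.

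The EIF4A genes, lists and named genes were chosen with earlier results of these data known. Named were the EIF4A genes, each hosted small RNA with a row, DXO, EIF4E, EIF4G1, EIF4B, EIF4H, PDCD4, MAGOH, RBM8A and CASC3, up to 4 genes per direction with the largest called difference in each partner list, and the 3 genes most like each EIF4A gene, of which 1 is not reported here. UPF3B was added. Alternatives were a pseudocount of 0.1, no filter, a mean FPKM of at least 10, centring, quantile normalization, scaling by summed mRNA FPKM, transcripts in place of genes, the replicate number as a block, leaving out each replicate, adding SENP3-EIF4A1, and, after the data were seen, the length of NM_001416.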

Additional observations from a re-analysis of the deposited data

How the results depend on the processing

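The direction of the EIF4A2 and EIF4A3 differences from RiboMinus, and of EIF4A1 and EIF4A2 between the NAD-Capture groups, was the same under all alternatives run. Centring moved the median gene by -0.50 (WT NAD-Capture minus RiboMinus), 0.13 (DXO-KO-labelled minus WT NAD-Capture) and -0.26 (DXO-KO-labelled minus RiboMinus). In WT NAD-Capture minus RiboMinus, centring gave -0.43, 1.62 and -2.29 for EIF4A1, EIF4A2 and EIF4A3, and scaling by summed mRNA FPKM gave -0.37, 1.70 and -2.23. Quantile normalization gave -0.95 for EIF4A1, and -2.33 for SNORA63 (limma adjusted p = 0.00892) and -1.39 for SNORA67 (0.00837), the reverse of their sign as deposited. In DXO-KO-labelled minus RiboMinus, EIF4A1 was at -2.18 with quantile normalization and -1.51 with the mRNA sum. The cause of these shifts was not tested.

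Of 17286 genes, 4238 passed in WT NAD-Capture minus RiboMinus (2880 higher, 1358 lower). The count was 2390 at a mean FPKM of at least 10 (1141 higher, 1249 lower) and 2472 with quantile normalization (1482 higher, 990 lower). For transcripts it was 6363 (3119 higher, 3244 lower). Centring gave 2203 higher and 3196 lower. Leaving out each replicate gave 13 to 5427, with 13 and 14 without RiboMinus replicates 1 and 2. Between the NAD-Capture groups, 6 genes passed, 3 without the filter and 27 with quantile normalization, and 3 to 15 when each replicate was left out (3 without WT NAD-Capture replicate 3, 12 and 15 without DXO-KO-labelled replicates 2 and 3). In DXO-KO-labelled minus RiboMinus, 509 passed (374 higher, 135 lower), 76 without the filter, 825 with quantile normalization and 3148 for transcripts; centring gave 386 higher and 332 lower. Leaving out each replicate gave 0 (1078 unadjusted, without RiboMinus replicate 1) to 1523, with 2 without RiboMinus replicate 2, and 1281, 1 and 1523 without DXO-KO-labelled replicates 1 to 3.

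Same-numbered replicates showed no shared deviation (correlations from -0.057 to 0.044). With so few libraries per group and such shallow NAD-Capture libraries, this check cannot exclude that the numbers pair the libraries. With the replicate block, limma passed 0 genes against RiboMinus in WT NAD-Capture (5833 unadjusted) and 0 in the DXO-KO-labelled libraries (3648 unadjusted), and 4 between the NAD-Capture groups. Of 20 named genes tested, the 9 called in WT NAD-Capture minus RiboMinus and the 3 called in DXO-KO-labelled minus RiboMinus were lost without either RiboMinus library and with the block. Depth limits EIF4A3, at 8 to 18 fragments in 5 of 6 NAD-Capture libraries, and SNORA67 and SNORA63, at 2 to 11 in WT NAD-Capture.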
